A study of Homo sapiens with 18 samples.

Results

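The RNA of 10 genes that act in the release of paused RNA polymerase II was measured: HEXIM1, HEXIM2, LARP7, MEPCE, CDK9, CCNT1, CCNT2, AFF1, AFF4 and ELL2. They were followed in 3 acute myeloid leukemia (AML) cell lines treated with a Menin inhibitor, a BET protein inhibitor or both. The genes were chosen by name, with earlier results of these data known. They are parts of the positive elongation factor P-TEFb, of the 7SK particle that holds it inactive, and of the super elongation complex. All 10 were found among the 58037 gene entries of the count table, 1 entry each, and all 10 passed the filter on low counts in every fit. The RNA selection, the strand setting and the counting program were not given in the sources used here.

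In the background, P-TEFb consists of the kinase CDK9 and a cyclin T, made from CCNT1 or CCNT2, and it frees promoter-proximal polymerase by phosphorylating the polymerase tail, NELF and DSIF. The 7SK RNA, capped by MEPCE and bound by LARP7, tethers P-TEFb to HEXIM1 or its paralog HEXIM2, which block the kinase. AFF1 and AFF4 are scaffolds that join P-TEFb to ELL2 and other factors in the super elongation complex, several of whose parts are fusion partners of MLL in leukemia. BET proteins bring P-TEFb to acetylated chromatin, and HEXIM1 RNA is in wide use as a marker that rises on BET inhibition.

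RNA-seq counts, made from total RNA, were read for 18 libraries in 8 groups, all collected after 16 h. MOLM13 cells, which carry an MLL-AF9 fusion, were treated with 500 nM SNDX-50469 plus 500 nM OTX015, with 500 nM OTX015 alone, with 500 nM SNDX-50469 alone, or left as control, with 2 libraries each. SNDX-50469, named VTP50469 in the labels, blocks the binding of Menin to MLL, and OTX015 is a BET protein inhibitor. MV4-11 cells, which carry a rearranged MLL gene, were treated with 1000 nM SNDX-50469 or left as control, with 2 libraries each. OCI-AML3 cells, which carry mutant NPM1, were treated with 500 nM SNDX-50469 or left as control, with 3 libraries each. MOLM13 and OCI-AML3 libraries were described by the study as biological replicates. For MV4-11 nothing said that libraries came from separate cultures, so its p-values reflect only how far these libraries differ, possibly for technical reasons.

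Each library held between 19320216 and 59711884 counts, with the OCI-AML3 libraries the deepest. Replicates of MV4-11 varied most, with a biological coefficient of variation of 13.2%, against 3.06% for MOLM13 and 3.15% for OCI-AML3. In MV4-11, control replicate 1 had 10.3% mitochondrial counts against 5.60% in control replicate 2, and in MOLM13 this share was 5.74% and 6.01% with SNDX-50469 plus OTX015, 5.60% and 5.56% with OTX015, 4.98% and 5.50% with SNDX-50469 and 4.36% and 4.83% in the controls. Its part in the results was not tested. Of 7 myeloid markers, 6 had a median above 1 CPM (counts per 1000000 counts of the scaled library) in every line, and the summed level of the lymphoid, erythroid or epithelial markers was at most 10.2 CPM, with HBB at 0 in all 3 lines. Values are relative to the other RNA of a library. No spike-in rows were used here, and in bulk RNA fewer cells of a type and less RNA per cell cannot be told apart.

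Positions were taken from RefSeq on GRCh38. HEXIM1 (ENSG00000186834.3) lies at chr17:45148475-45152099 on the plus strand, and HEXIM2 follows it at chr17:45160174-45170040, starting 8074 bases after the end of HEXIM1. MEPCE lies at chr7:100428790-100434118, LARP7 at chr4:112637143-112657586, CDK9 at chr9:127786034-127790792, CCNT1 at chr12:48688458-48716707 and CCNT2 at chr2:134918822-134959342. AFF1 lies at chr4:86935011-87141039, AFF4 at chr5:132875395-132963634 and ELL2 at chr5:95885098-95961851. All 10 are protein-coding genes.

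RefSeq promoter windows on GRCh38.p14 were matched for 9 of the 10 genes. The 250 bases before the start site of HEXIM1, of HEXIM2 and of AFF4 are shown 5′ to 3′. HEXIM1 and AFF4 were picked as genes called higher under OTX015, and HEXIM2 as the neighboring paralog. HEXIM2 was not called there, on 7 and 16 counts in the OTX015 libraries, so its response is not known. AFF1 and CCNT2, also called higher, are not shown. A link between these sequences and the responses was not tested. The 3 windows lie at chr17:45148225-45148474 and chr17:45159924-45160173 on the plus strand and at chr5:132963635-132963884 on the minus strand. For HEXIM2 the outermost listed start was used. Capitals mark every match, on either strand, to 5 motifs: GGGCGG as the GC box, CCAAT as the CCAAT box, TATAAA as the TATA box, CACGTG as the E-box and CCGGAAG as the ETS core.
HEXIM1: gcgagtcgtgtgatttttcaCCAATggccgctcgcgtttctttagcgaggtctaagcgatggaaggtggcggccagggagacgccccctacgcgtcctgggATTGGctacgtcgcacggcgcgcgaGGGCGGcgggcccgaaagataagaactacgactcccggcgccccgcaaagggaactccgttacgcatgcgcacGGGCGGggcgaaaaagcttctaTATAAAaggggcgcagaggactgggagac
HEXIM2: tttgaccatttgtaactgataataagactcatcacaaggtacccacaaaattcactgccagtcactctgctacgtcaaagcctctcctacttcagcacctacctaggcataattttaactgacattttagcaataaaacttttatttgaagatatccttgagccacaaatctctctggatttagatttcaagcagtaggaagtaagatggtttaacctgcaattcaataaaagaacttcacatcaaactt
AFF4: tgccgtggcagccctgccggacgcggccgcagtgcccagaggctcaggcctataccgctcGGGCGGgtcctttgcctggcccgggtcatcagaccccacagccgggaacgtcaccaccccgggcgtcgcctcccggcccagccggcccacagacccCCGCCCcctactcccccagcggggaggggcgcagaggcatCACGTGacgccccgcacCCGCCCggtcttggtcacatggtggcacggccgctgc
The HEXIM1 window held 2 matches to GGGCGG, 2 to CCAAT and 1 to TATAAA and was 62.4% G or C. The AFF4 window held 3 matches to GGGCGG and 1 to CACGTG and was 75.2% G or C. The HEXIM2 window held no match to any of the 5 motifs and was 36.0% G or C, against a median of 58.0% over 35116 RefSeq promoter windows of the same length. Of those windows 42.6% held GGGCGG, 32% held CCAAT, 10.7% held TATAAA, 6.34% held CACGTG and 8.52% held CCGGAAG. These are matches of letters and not sites shown to be bound.

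Before any treatment the 10 genes were present at very different levels. The length used joined all annotated exons of a gene, 8094 bases for LARP7 and 3625 for HEXIM1. The order of the genes per kilobase therefore depends on the annotation. Per kilobase of exon, untreated MOLM13 cells held 52.3 CPM of MEPCE, 26.1 of CDK9, 14.9 of HEXIM1, 9.08 of AFF1, 7.98 of CCNT1, 5.86 of LARP7, 2.36 of CCNT2, 1.89 of AFF4, 0.442 of HEXIM2 and 0.185 of ELL2. HEXIM2 therefore stood far below HEXIM1 per kilobase, and the same held in untreated MV4-11 cells at 1.37 against 14.2 and in untreated OCI-AML3 cells at 0.924 against 16.2. The plot of levels by library shows all 10 genes in all 8 groups.

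**Figure D1:**
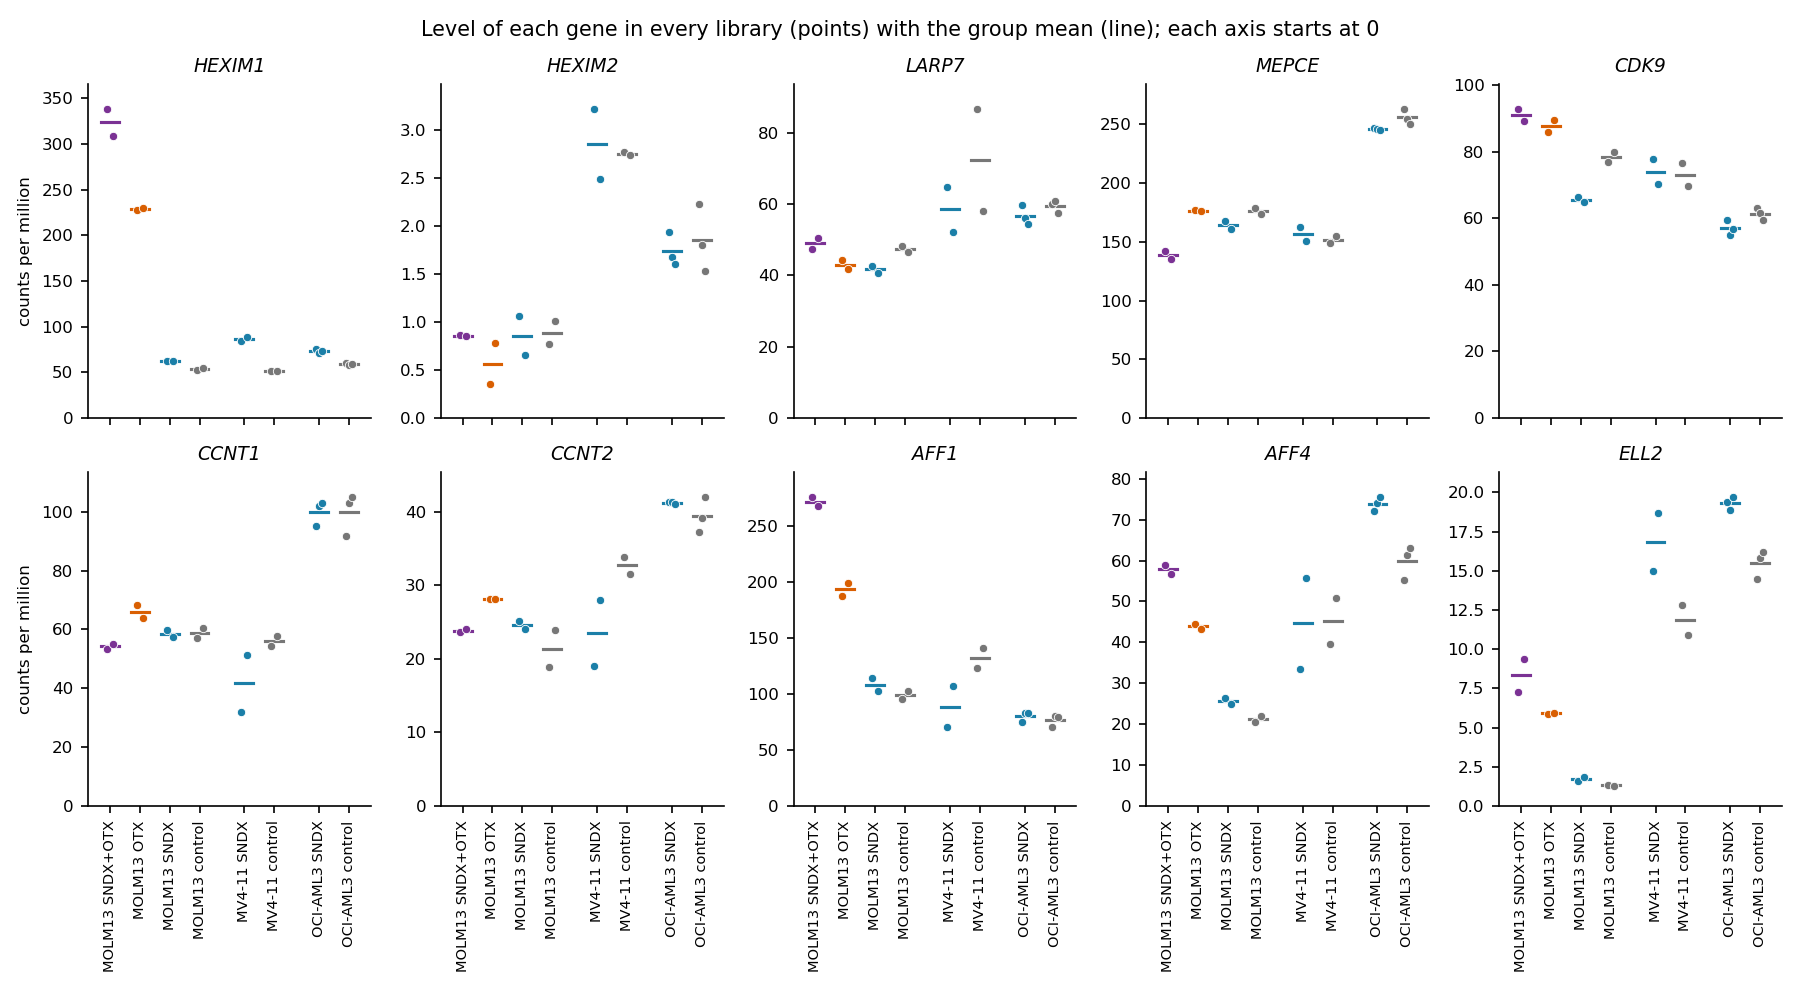
CPM of each gene in every library, 1 panel per gene, with groups along the horizontal axis, points for libraries and lines for group means. HEXIM1 stood at 338 and 309 CPM under SNDX-50469 plus OTX015 and at 228 and 230 CPM under OTX015, above every other library, which lay between 51.4 and 88.7 CPM.

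The first comparison asked how BET inhibition changed these genes in MOLM13 cells. OTX015 raised 5 of the 10 genes, HEXIM1, ELL2, AFF4, AFF1 and CCNT2, by the call used throughout, an edgeR adjusted p under 0.05 together with a change of at least 1.25-fold, and the other 5 were not called. Of all 14360 genes tested 23.5% were called higher and 24.7% lower in this comparison. The median log2 fold change was 0.30 over the 10 genes and 0.01 over all genes.

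HEXIM1, the inhibitory subunit named for its induction by hexamethylene bisacetamide, stood at 228 and 230 CPM in the OTX015 libraries, against 52.8 and 55.1 CPM in the control libraries. The groups were far apart, and the fitted change was 4.32-fold, a log2 fold change of 2.11 ± 0.05 (SE, n = 2 each, edgeR adjusted p = 7.70e-44). Its paralog HEXIM2 had 0.349 and 0.784 CPM in the OTX015 libraries, against 0.767 and 1.01 CPM in the control libraries, and the ranges overlapped. These values rest on 7 and 16 counts in the OTX015 libraries and on 15 and 21 counts in the control libraries, and the 95% interval of the HEXIM2 log2 fold change reached from -1.51 to 0.28. At this depth the data are compatible with any HEXIM2 change within that interval, no change included. The interval of HEXIM1 ran from 2.01 to 2.21.

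The 3 listed super elongation complex genes rose under OTX015. They were listed with earlier results of these data known and do not describe the complex. Of 6 other subunits tested, 0 were called higher and 2 lower. ELL2, which raises the elongation rate of the polymerase, was low in MOLM13 and stood at 5.89 and 5.93 CPM with OTX015, against 1.33 and 1.30 CPM in control, a 4.57-fold rise (log2 2.19 ± 0.22 SE, adjusted p = 1.24e-13). AFF4 stood at 44.6 and 43.3 CPM with OTX015, against 20.5 and 22.1 CPM in control, a 2.1-fold rise (log2 1.07 ± 0.07 SE, adjusted p = 3.26e-20). AFF1 stood at 188 and 199 CPM with OTX015, against 95.7 and 103 CPM in control, a 1.98-fold rise (log2 0.99 ± 0.05 SE, adjusted p = 1.95e-27). In each of these genes the OTX015 libraries lay above both controls by more than the spread between replicates.

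Reads of ELL2 and AFF1 can mix with those of neighbors, because ELL2 meets CAST head to head and AFF1 overlaps C4orf36, and the strand setting of the counting was not given. CAST, the calpain inhibitor calpastatin, had 43069 counts over the 18 libraries against 8292 for ELL2, and its log2 change was 0.57 ± 0.06 SE with OTX015, beside 2.19 for ELL2, and 1.61 ± 0.06 with both agents against control, beside 2.66. For both agents against OTX015 the log2 change was 1.04 for CAST and 0.47 for ELL2, and with SNDX-50469 it was 0.42 and 0.41 in MOLM13 and 0.63 and 0.53 in MV4-11, so in these contrasts the value of CAST was at least that of ELL2. Its part in the ELL2 values was not tested. C4orf36 had 2894 counts against 66306 for AFF1. HEXIM2-AS1, which overlaps both HEXIM1 and HEXIM2 on the opposite strand, had 70 counts in all 18 libraries.

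The kinase and cyclin genes moved little. CCNT2 stood at 28.1 CPM in both OTX015 libraries, against 18.9 and 23.9 CPM in control, a 1.34-fold rise (log2 0.42 ± 0.09 SE, adjusted p = 2.27e-05). That call rests on control replicate 1, since without it the log2 change was 0.26 and the call was lost. CDK9 had 85.8 and 89.7 CPM with OTX015, against 76.8 and 79.9 CPM in control (log2 0.19 ± 0.05 SE, adjusted p = 0.00134), and CCNT1 had 68.4 and 63.8 CPM with OTX015, against 57.1 and 60.5 CPM in control (log2 0.19 ± 0.06 SE, adjusted p = 0.00303). Both differences were larger than the replicate spread but under the 1.25-fold limit. LARP7, which protects the 7SK RNA, had 44.2 and 41.7 CPM with OTX015, against 48.2 and 46.6 CPM in control (log2 -0.12 ± 0.06 SE, adjusted p = 0.115). MEPCE, the 7SK capping enzyme, had 177 and 176 CPM with OTX015, against 179 and 174 CPM in control, and the 95% interval of its log2 change ran from -0.06 to 0.12.

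The second comparison asked what SNDX-50469 plus OTX015 did in the same cells. Against control, HEXIM1, ELL2, AFF1 and AFF4 rose, MEPCE fell, and the other 5 genes were not called. The calls over all genes were 31.2% higher and 30.9% lower, and the median log2 fold change was 0.18 over the 10 genes and 0.02 over all genes. The 3 MOLM13 treatments share the same 2 control libraries, so their values against control are given side by side in the plot of responses and are not independent.

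HEXIM1 stood at 338 and 309 CPM with both agents, the highest level of any group, a 5.97-fold rise over control (log2 2.58 ± 0.05 SE, n = 2 each, adjusted p = 3.55e-49). ELL2 stood at 7.26 and 9.39 CPM with both agents, a 6.32-fold rise over control (log2 2.66 ± 0.21 SE). AFF1 stood at 276 and 268 CPM, a 2.73-fold rise (log2 1.45 ± 0.05 SE), and AFF4 at 59.0 and 56.8 CPM, a 2.71-fold rise (log2 1.44 ± 0.07 SE). The samples with both agents lay above all other MOLM13 libraries for each of these 4 genes.

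MEPCE was the single member called lower, at 142 and 135 CPM with both agents against 179 and 174 CPM in control, a log2 change of -0.35 ± 0.05 SE (adjusted p = 3.23e-10). It lies close to the fold limit: the call was lost with library totals alone, with limma-voom on quantile-normalized values and without replicate 2 of the treated group, where the log2 change was -0.25, -0.26 and -0.31. CDK9 had 92.8 and 89.2 CPM with both agents (log2 0.21 ± 0.05 SE against control, adjusted p = 3.02e-04), under the fold limit. CCNT1 had 53.4 and 55.2 CPM (log2 -0.12 ± 0.06 SE), CCNT2 23.6 and 24.1 CPM (log2 0.15 ± 0.09 SE) and LARP7 47.5 and 50.4 CPM (log2 0.04 ± 0.06 SE), none of them past the adjusted p limit. HEXIM2, at 0.861 and 0.854 CPM, had a 95% interval against control from -0.89 to 0.77 on the log2 scale.

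**Figure D2:**
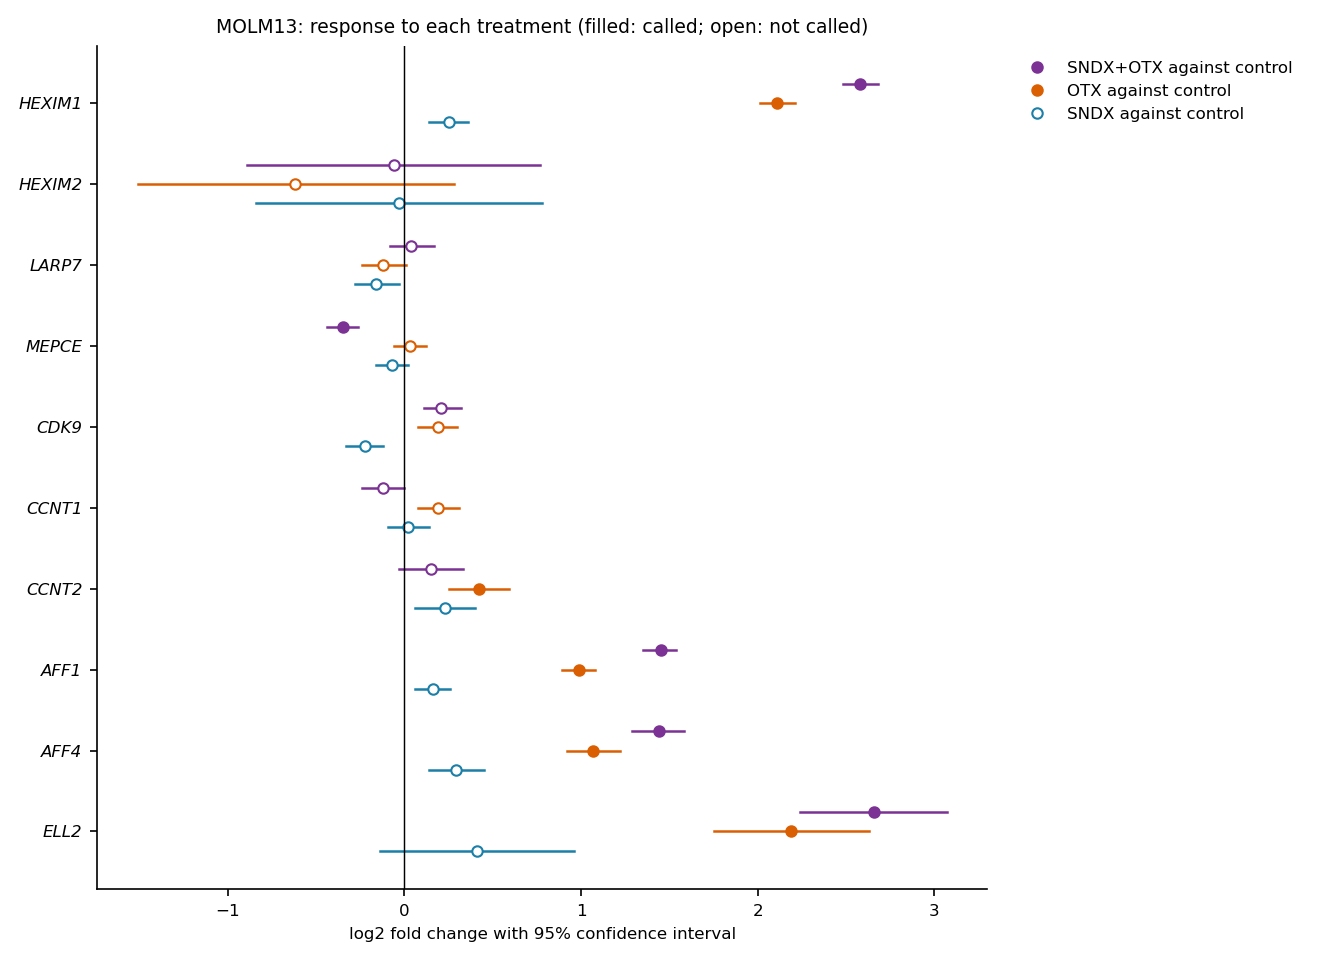
Log2 fold change of each gene against the MOLM13 control libraries, with 95% confidence intervals, for SNDX-50469 plus OTX015, OTX015 and SNDX-50469 from top to bottom within a gene, and filled points for calls. HEXIM1 and ELL2 lie above 2 in both treatments with OTX015, AFF1 and AFF4 between 0.99 and 1.45, and no gene is filled for SNDX-50469.

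Adding OTX015 to SNDX-50469 raised the same genes and CDK9. Against SNDX-50469 alone, SNDX-50469 plus OTX015 raised HEXIM1 5.03-fold, ELL2 4.75-fold, AFF1 2.44-fold, AFF4 2.21-fold and CDK9 1.35-fold, which is 5 of the 10 genes, beside 27.9% of all genes called higher and 29% called lower. CDK9 stood at 92.8 and 89.2 CPM with both agents, against 66.4 and 64.9 CPM with SNDX-50469 alone (log2 0.44 ± 0.05 SE, adjusted p = 7.44e-11). MEPCE was 0.28 ± 0.05 lower on the log2 scale with both agents than with SNDX-50469 alone, short of the fold limit.

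Adding SNDX-50469 to OTX015 raised HEXIM1, AFF1, AFF4 and ELL2 and lowered MEPCE. Against OTX015 alone, HEXIM1 rose by a further 1.38-fold (log2 0.47 ± 0.04 SE, adjusted p = 1.07e-14), AFF1 by 1.38-fold (log2 0.46 ± 0.04 SE), AFF4 by 1.29-fold (log2 0.37 ± 0.06 SE) and ELL2 by 1.38-fold (log2 0.47 ± 0.16 SE, adjusted p = 0.00885), while MEPCE fell (log2 -0.38 ± 0.05 SE, adjusted p = 6.68e-11). Over all genes 18.4% were called higher and 16.5% lower. The ELL2 call was lost with DESeq2 and without replicate 2 of the combined group, where the log2 change was 0.27, and the MEPCE call was lost with limma-voom and quantile normalization at -0.31. CCNT1, with a log2 change of -0.31 ± 0.06 SE, and CCNT2, with -0.27 ± 0.09 SE, passed the adjusted p limit and not the fold limit.

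An interaction term then tested whether the joint response differed from the sum of the single responses on the log2 scale. Over all genes 11.5% were called higher and 12.7% lower than the sum. Among the 10 genes, CCNT2 and CCNT1, the cyclin genes of P-TEFb, were called lower than the sum, and the other 8 were not called. CCNT2 had a joint response of 0.15 beside a sum of 0.65, a difference of -0.50 ± 0.12 (SE, adjusted p = 6.84e-04). The CCNT2 control libraries, at 18.9 and 23.9 CPM, enter the joint response and both single responses. With 1 library left out, the CCNT2 difference ran from -0.68 to -0.35. CCNT1 had a joint response of -0.12 beside a sum of 0.22, a difference of -0.34 ± 0.08 (SE, adjusted p = 8.85e-04). Fitted with all 18 libraries, CCNT2 had -0.44 and CCNT1 -0.28, and neither was called. The CCNT1 call was lost in 8 of 16 alternatives, with values from -0.31 to -0.28, among them DESeq2, limma-voom with quantile normalization, DESeq2 size factors in edgeR and the fits without replicate 1 of control, SNDX-50469, OTX015 or both agents.

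HEXIM1 had a joint response of 2.58 beside a sum of 2.36, and its difference of 0.22 ± 0.07 (SE, adjusted p = 0.0103) was under the fold limit. AFF1 exceeded the sum by 0.30 ± 0.07 and LARP7 by 0.31 ± 0.09, and MEPCE was 0.31 ± 0.06 below it, each past the adjusted p limit and short of the fold limit. AFF1 was called in 8 and LARP7 in 9 of 16 alternatives, DESeq2 and limma-voom with quantile normalization among them, so which genes were called changed with the tool and scaling. For ELL2 the difference was 0.06 with a 95% interval from -0.60 to 0.71, and for AFF4 it was 0.08 with an interval from -0.13 to 0.28. The sum for HEXIM2 was -0.64, and the interval of its difference, from -0.64 to 1.80, was the widest.

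**Figure D3:**
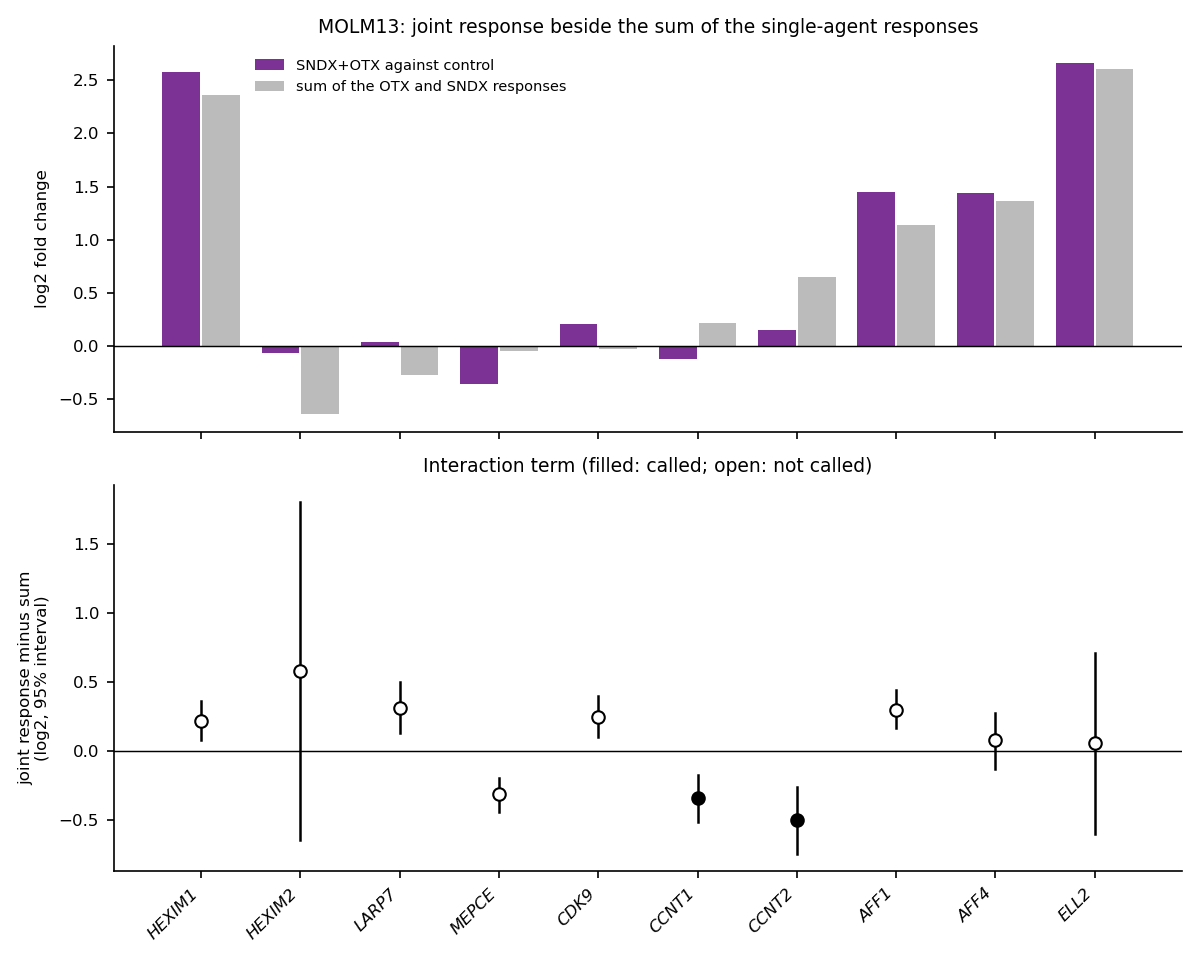
Upper panel, bars of the log2 response to SNDX-50469 plus OTX015 in MOLM13 beside the sum of the OTX015 and SNDX-50469 responses. Lower panel, the interaction term with its 95% confidence interval, filled where called, which is the case for CCNT1 at -0.34 and CCNT2 at -0.50.

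The next comparison asked how SNDX-50469 alone acted on the 10 genes in each line. HEXIM1 was called higher in MV4-11 and OCI-AML3 and had the same sign in MOLM13 under the fold limit. The doses differed, 500 nM in MOLM13 and OCI-AML3 and 1000 nM in MV4-11, so the MV4-11 values are given beside the others with no comparison between them.

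In MOLM13 edgeR called 0 of the 10 genes with SNDX-50469, beside 8.06% of all genes called higher and 5.24% lower, and DESeq2 and limma-voom with quantile normalization also called 0. An edgeR unadjusted p under 0.05 was reached by 6 of the 10 genes. The share of all genes at that limit is not given, so this count is not read as a result. HEXIM1 stood at 62.8 and 62.6 CPM with SNDX-50469, against 52.8 and 55.1 CPM in control, a 1.19-fold difference (log2 0.25 ± 0.06 SE, adjusted p = 3.17e-04). AFF4 had 26.3 and 24.9 CPM with SNDX-50469, against 20.5 and 22.1 CPM in control (log2 0.29 ± 0.08 SE, adjusted p = 0.0024). CDK9 had 66.4 and 64.9 CPM with SNDX-50469, against 76.8 and 79.9 CPM in control (log2 -0.22 ± 0.05 SE, adjusted p = 6.76e-04). The SNDX-50469 and control libraries did not overlap for these 3 genes, and each difference was under 1.25-fold.

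The other members moved less or with more error in MOLM13. CCNT2 had 25.2 and 24.1 CPM with SNDX-50469 (log2 0.23 ± 0.09 SE, adjusted p = 0.0323) and AFF1 114 and 103 CPM (log2 0.16 ± 0.05 SE, adjusted p = 0.00987). ELL2 had 1.57 and 1.85 CPM, and with 34 and 42 counts behind these values the 95% interval of its log2 change ran from -0.14 to 0.96. CCNT1 had 59.9 and 57.3 CPM (log2 0.02 ± 0.06 SE), LARP7 42.7 and 40.6 CPM (log2 -0.16 ± 0.06 SE), MEPCE 168 and 161 CPM (log2 -0.07 ± 0.04 SE) and HEXIM2 1.06 and 0.659 CPM (log2 -0.03 ± 0.41 SE).

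In MV4-11 HEXIM1 rose and AFF1 fell with SNDX-50469, beside 11.4% of all genes called higher and 9.34% lower. HEXIM1 stood at 84.0 and 88.7 CPM with SNDX-50469, against 51.5 and 51.4 CPM in control, a 1.7-fold rise (log2 0.77 ± 0.15 SE, adjusted p = 0.00175), and the groups were clearly apart. AFF1 stood at 70.5 and 107 CPM with SNDX-50469, against 123 and 141 CPM in control (log2 -0.55 ± 0.18 SE, adjusted p = 0.0423). MV4-11 is known to carry an MLL fusion with AFF1, so counts of AFF1 from the fusion and from the intact allele cannot be told apart. The AFF1 call was lost without SNDX-50469 replicate 1, at -0.30, without control replicate 2, at -0.43, and with library totals alone, at -0.51.

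SNDX-50469 replicate 1 of MV4-11 stood apart in several of these genes. CCNT1 had 32.1 and 51.3 CPM with SNDX-50469, against 54.4 and 57.9 CPM in control (log2 -0.41 ± 0.19 SE, adjusted p = 0.145), and CCNT2 had 19.1 and 28.0 CPM, against 33.9 and 31.6 CPM in control (log2 -0.45 ± 0.19 SE, adjusted p = 0.0969). AFF4 had 33.6 and 55.8 CPM with SNDX-50469, against 39.7 and 50.8 CPM in control, so both controls lay between the treated libraries. In each of the 4 genes AFF1, CCNT1, CCNT2 and AFF4 the first treated library was the lowest of the 4 MV4-11 libraries. ELL2 had 15.0 and 18.7 CPM with SNDX-50469, against 12.8 and 10.9 CPM in control (log2 0.53 ± 0.19 SE, adjusted p = 0.0518), just short of the limit. LARP7 had 64.9 and 52.1 CPM with SNDX-50469, against 86.6 and 58.0 CPM in control, and the ranges overlapped. CDK9 had 77.7 and 70.2 CPM with SNDX-50469, against 76.5 and 69.7 CPM in control, MEPCE had 163 and 151 CPM, against 149 and 155 CPM, and HEXIM2 had 3.22 and 2.49 CPM, against 2.77 and 2.74 CPM.

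In OCI-AML3 HEXIM1 was the member called, beside 8.58% of all genes called higher and 4.53% lower. It stood at 75.0, 71.5 and 73.7 CPM with SNDX-50469, against 59.7, 57.8 and 58.7 CPM in control, a 1.25-fold rise (log2 0.33 ± 0.03 SE, n = 3 each, adjusted p = 2.57e-06). The groups did not overlap, but the value sits at the fold limit: without control replicate 2 it was 0.32, without SNDX-50469 replicate 1 it was 0.31, in the fit of all 18 libraries it was 0.32, and each of these lost the call. ELL2 had 19.4, 18.9 and 19.7 CPM with SNDX-50469, against 14.5, 15.8 and 16.2 CPM in control (log2 0.32 ± 0.05 SE, adjusted p = 1.59e-04). AFF4 had 72.0, 74.1 and 75.5 CPM with SNDX-50469, against 55.2, 61.4 and 63.1 CPM in control (log2 0.31 ± 0.04 SE, adjusted p = 9.63e-05). Both lay just under the fold limit with groups that did not overlap.

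The remaining OCI-AML3 values were close together. CDK9 had 59.5, 55.0 and 56.8 CPM with SNDX-50469, against 63.0, 61.7 and 59.6 CPM in control (log2 -0.10 ± 0.04 SE, adjusted p = 0.0396). CCNT1 had a log2 change of 0.00 with a 95% interval from -0.10 to 0.10, CCNT2 of 0.06 from -0.02 to 0.15, AFF1 of 0.06 from -0.04 to 0.17, LARP7 of -0.06 from -0.15 to 0.02, MEPCE of -0.05 from -0.11 to 0.00 and HEXIM2 of -0.08 from -0.39 to 0.24.

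The response to 500 nM SNDX-50469 was tested between OCI-AML3 and MOLM13 in a fit of all 18 libraries. edgeR, DESeq2 and limma-voom with quantile normalization each called 0 of the 10 genes and none had an unadjusted p under 0.05, beside 2.6% of all genes called higher and 1.49% lower. For HEXIM1 the OCI-AML3 response minus the MOLM13 response was 0.11 with a 95% interval from -0.06 to 0.27 on the log2 scale. For AFF4 this difference was 0.04 with an interval from -0.38 to 0.46, and for CDK9 0.15 with an interval from -0.03 to 0.33.

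**Figure D4:**
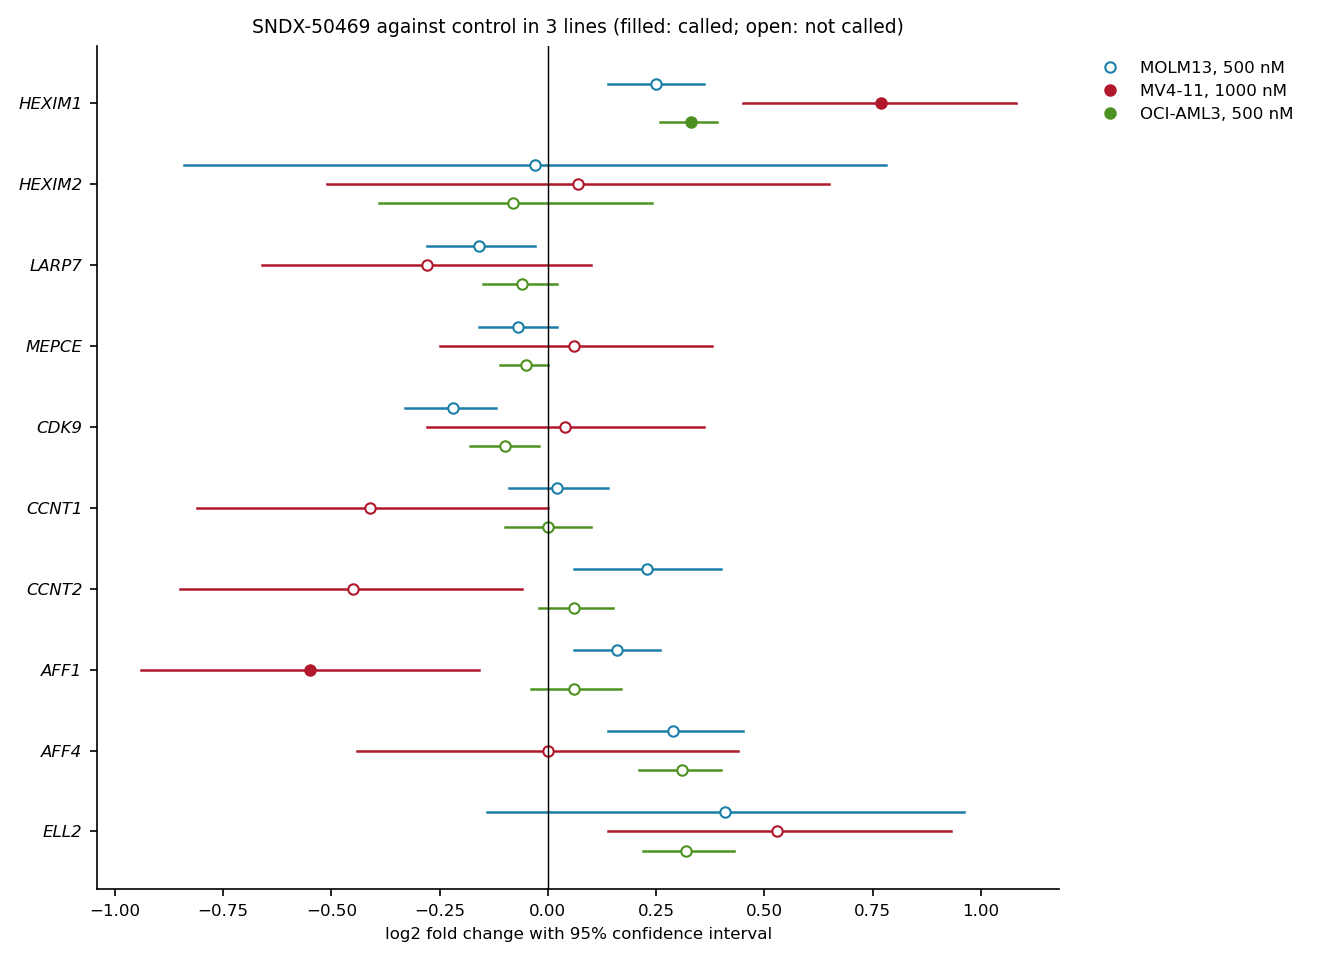
Log2 fold change of each gene with SNDX-50469 against control in MOLM13, MV4-11 and OCI-AML3, from top to bottom within a gene, with 95% confidence intervals and filled points for calls. HEXIM1 lies at 0.25, 0.77 and 0.33, and the MV4-11 intervals are the widest except for HEXIM2 and ELL2, whose widest are in MOLM13.

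The untreated lines were then compared. Untreated HEXIM1 averaged 54.0 ± 1.57 CPM in MOLM13 and 51.5 ± 0.0625 CPM in MV4-11 (SD, n = 2 each) and 58.8 ± 0.921 CPM in OCI-AML3 (SD, n = 3), and it was called in no contrast of untreated lines. In MOLM13 against OCI-AML3, CDK9 and AFF1 were called higher and 7 genes lower, beside 30.5% of all genes called higher and 33.7% lower. Of all genes 64.2% were called in one direction or the other here, 67.4% in MV4-11 against OCI-AML3 and 63.5% in MV4-11 against MOLM13, and the 6 of 10 members called in each MV4-11 contrast are near that share. ELL2 showed the widest gap, 1.33 and 1.30 CPM in MOLM13 against 14.5, 15.8 and 16.2 CPM in OCI-AML3 (log2 -3.56 ± 0.17 SE, adjusted p = 1.17e-13). AFF4 was lower in MOLM13 by a log2 change of -1.49 ± 0.15 SE, HEXIM2 by -1.05 ± 0.28, CCNT2 by -0.88 ± 0.12, CCNT1 by -0.77 ± 0.12, MEPCE by -0.54 ± 0.05 and LARP7 by -0.33 ± 0.12. CDK9 was higher in MOLM13 by 0.35 ± 0.06 and AFF1 by 0.37 ± 0.12. The CDK9 and AFF1 calls were lost with library totals alone, at 0.15 and 0.18, with limma-voom and quantile normalization, with no filter and without MOLM13 control replicate 2, and that of AFF1 also without OCI-AML3 control replicate 1. The LARP7 call was lost in 6 fits that left out 1 library, among them those without either MOLM13 control, with values from -0.36 to -0.31, and that of HEXIM2 with limma-voom and quantile normalization, at -0.64.

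In untreated MV4-11 against OCI-AML3, AFF1 and HEXIM2 were higher and MEPCE, CCNT1, AFF4 and ELL2 lower, beside 34.3% of all genes called higher and 33.1% lower. AFF1, with its fusion transcript in MV4-11, stood at 123 and 141 CPM in MV4-11, against 70.4, 80.1 and 79.9 CPM in OCI-AML3 (log2 0.78 ± 0.11 SE, adjusted p = 3.07e-06). MEPCE stood at 149 and 155 CPM in MV4-11, against 263, 255 and 250 CPM in OCI-AML3 (log2 -0.75 ± 0.05 SE). The HEXIM2 call was lost with limma-voom and quantile normalization, at 0.35, with DESeq2, at 0.58, without MV4-11 control replicate 2, at 0.56, and without OCI-AML3 control replicate 3, at 0.45. The AFF4 call was lost with limma-voom and quantile normalization, at -0.31, and without MV4-11 control replicate 1, at -0.24, and the ELL2 call without MV4-11 control replicate 2, at -0.31. In untreated MV4-11 against MOLM13, 6 genes were higher, ELL2 by 3.16 ± 0.18 on the log2 scale, HEXIM2 by 1.62 ± 0.30, AFF4 by 1.09 ± 0.16, CCNT2 by 0.61 ± 0.13, LARP7 by 0.60 ± 0.13 and AFF1 by 0.41 ± 0.13, beside 34.2% of all genes called higher and 29.3% lower. The LARP7 call rests on MV4-11 control replicate 1, at 86.6 CPM beside 58.0 CPM in replicate 2, and was lost without it at 0.29. The AFF1 call was lost without MOLM13 control replicate 1, at 0.35, and without MV4-11 control replicate 2, at 0.27. MV4-11 was grown in another medium than the other lines, so line and medium cannot be told apart.

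Across the 8 groups HEXIM1 averaged 51.5 CPM in untreated MV4-11, 54.0 in untreated MOLM13 and 58.8 in untreated OCI-AML3. With SNDX-50469 it averaged 62.7 CPM in MOLM13, 73.4 in OCI-AML3 and 86.4 in MV4-11. In MOLM13 it averaged 229 CPM with OTX015 and 323 with both agents. Groups next to each other in level did not overlap, which is a description and not a test. Untreated MV4-11 and MOLM13 differed by log2 -0.07 (edgeR adjusted p = 0.346). MV4-11 also differed in dose and medium. For ELL2 every MOLM13 group, from 1.31 CPM in control to 8.33 CPM with both agents, lay below untreated MV4-11 at 11.8 CPM, while SNDX-50469-treated MV4-11 at 16.9 CPM overlapped untreated OCI-AML3 at 15.5 CPM. AFF4 in MOLM13 reached 57.9 CPM with both agents, where its libraries overlapped those of untreated OCI-AML3 at 59.9 CPM. For LARP7 and HEXIM2 most neighboring groups overlapped.

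Over the 18 libraries, each gene's log2 CPM minus the mean of the untreated libraries of its line was set beside that of HEXIM1. Pearson's r with HEXIM1 was 0.987 for ELL2, 0.909 for AFF4, 0.823 for AFF1, 0.713 for CDK9, 0.343 for CCNT2, -0.000504 for CCNT1, -0.0127 for LARP7, -0.352 for HEXIM2 and -0.609 for MEPCE. Among 15894 genes ranked, SAT1 (r = 0.994), ARFGAP3 (0.993), FAM120B, THAP8 and LMNA (0.992 each) were the most like HEXIM1. SAT1, the spermidine acetyltransferase, changed with OTX015 by 2.44 on the log2 scale and LMNA, the nuclear lamin A gene, by 1.40. The libraries share their lines and treatments, and the 4 with OTX015 hold the highest HEXIM1 levels, so these coefficients are a description.

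To place the 10 genes among the rest of the elongation machinery, 64 other genes in 8 lists were read in the same fits, in which 48.1% of all genes were called with OTX015 and 62.1% with both agents. With OTX015 the list medians lay between -0.10 and 0.26 on the log2 scale, and the 7 P-TEFb and 7SK members had 0.19. AFF1, AFF4 and ELL2 had 1.07, beside -0.03 for the 6 other super elongation complex subunits tested. These genes were listed apart from the other subunits with earlier results of these data known, so 1.07 does not describe the complex. The 7SK RNA itself, RN7SK, had 0 counts in all 18 libraries. The RNA selection, the counting program and the annotation release were not given, so this does not show that the RNA was absent from the cells. Of the other super elongation complex subunits 6 were tested, and with OTX015 AFF3, a paralog of AFF1 and AFF4, fell to 0.191 of its control level (log2 -2.39 ± 0.06 SE, adjusted p = 7.01e-41) and EAF2, an ELL partner, fell (log2 -0.47 ± 0.10 SE). AFF3 also fell with both agents (log2 -1.84 ± 0.06 SE), as did EAF2 (log2 -0.35 ± 0.10 SE). AFF3 was thus called opposite to AFF1 and AFF4 under the same agent.

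Of 9 other 7SK and P-TEFb partners tested, 1 rose and 1 fell with OTX015, the arginine demethylase gene JMJD6 being the one that fell (log2 -0.45 ± 0.07 SE). With both agents 1 of the 9 rose and 5 fell, among them DDX21, a helicase that frees P-TEFb from 7SK (log2 -1.46 ± 0.04 SE), the phosphatase gene PPM1G (log2 -0.64 ± 0.04 SE), the splicing factor gene SRSF2 (log2 -0.57 ± 0.05 SE) and the RNA-binding protein gene SYNCRIP (log2 -0.51 ± 0.04 SE). Their median was -0.45 with both agents, beside 0.02 for all genes. Of the 6 pausing factor genes of NELF and DSIF, 1 rose and 2 fell with OTX015 and likewise with both agents. NELFCD and NELFA fell by log2 -0.47 and -0.42 with OTX015 and by -0.82 and -0.48 with both agents, and SUPT5H rose by 0.33 and 0.45, of which the OTX015 call was lost in 4 of 16 alternatives.

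Of 14 PAF complex and other elongation factor genes, 4 rose and 2 fell with OTX015 and 4 rose and 4 fell with both agents, near those shares of all genes. CDC73, SUPT6H and RTF1 rose with OTX015 by log2 0.57, 0.56 and 0.54, and SSRP1, a subunit of the histone chaperone FACT, fell by 0.51. With both agents SSRP1 fell by 0.81, and RTF1 and CTR9 rose by 0.69 and 0.68. Of 6 other kinase and cyclin genes for the polymerase tail, CDK13 and CDK12 rose with OTX015 (log2 0.47 and 0.42) and CCNH, the cyclin of CDK7, fell (log2 -0.63). With both agents CDK13 rose (log2 0.41) and CCNH fell (log2 -0.64).

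In the little elongation complex of 3 genes ICE1 rose with OTX015 (log2 0.33 ± 0.05 SE), and with both agents ZC3H8 and ICE2 fell (log2 -0.54 ± 0.11 and -0.33 ± 0.06 SE). In the DOT1L complex of 3 genes MLLT6 fell in both treatments (log2 -0.70 with OTX015 and -0.69 with both agents). Of 14 Integrator genes 2 rose and 3 fell with OTX015, INTS7 by 0.83 and INTS14 by -0.70 the farthest, and 3 rose and 3 fell with both agents, INTS13 by -1.07 the farthest, both below the shares of all genes called.

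**Figure D5:**
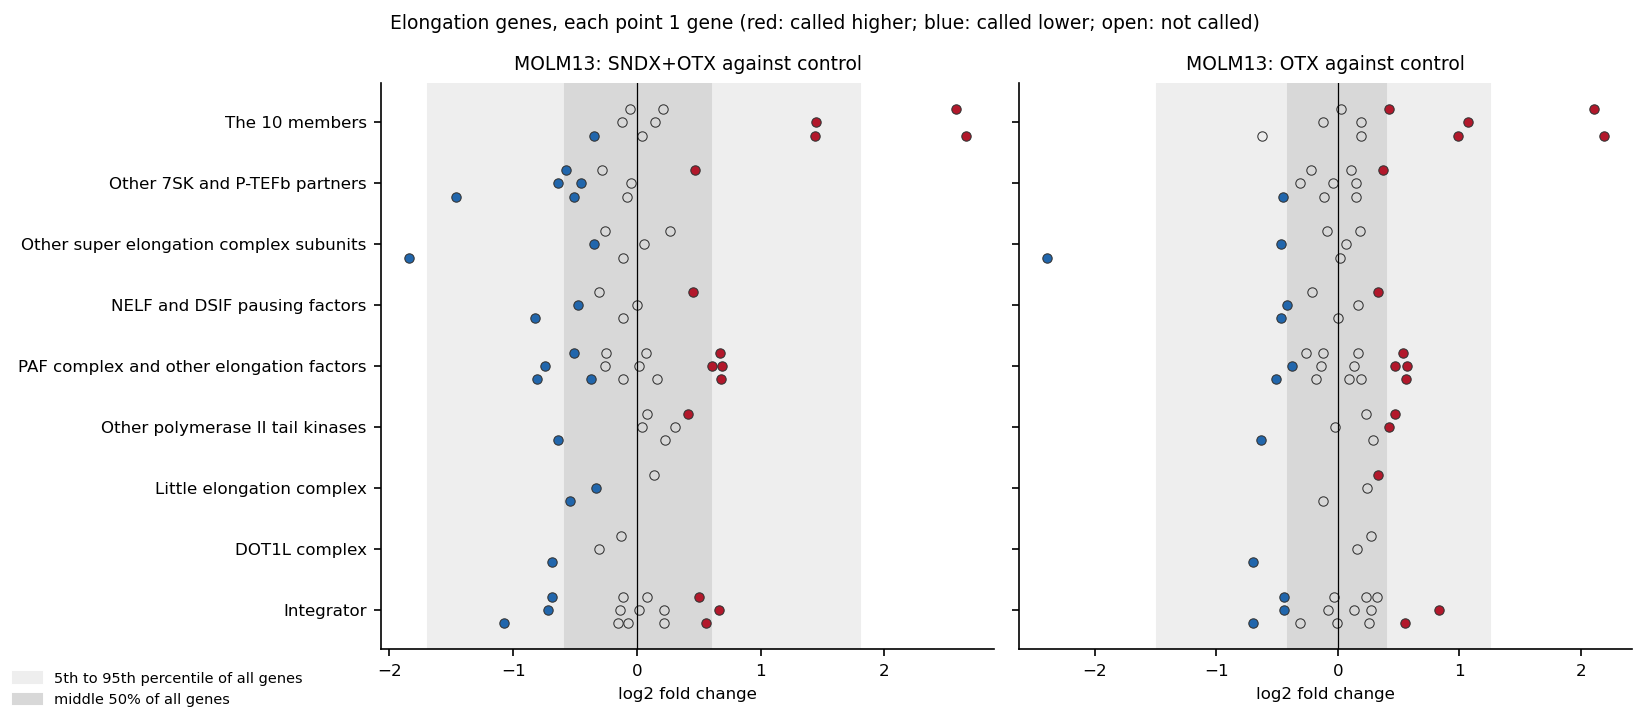
Log2 fold change of every tested gene in the 10-gene set and in 8 other lists, for SNDX-50469 plus OTX015 (left) and OTX015 (right) against control in MOLM13, with gray bands for the middle 50% and for the 5th to 95th percentile of all genes. HEXIM1 and ELL2 lie beyond the 95th percentile in both panels, at 1.80 and 1.25, and AFF3 lies beyond the 5th.

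With SNDX-50469 alone the same lists held few calls in MOLM13 and OCI-AML3, beside 13.3% and 13.1% of all genes called. In MOLM13 AFF3 rose (log2 0.58 ± 0.05 SE), ICE1 rose (0.33 ± 0.05), INTS3 rose (0.37 ± 0.06), and JMJD6 (-0.38 ± 0.07) and INTS12 (-0.35 ± 0.11) fell. In OCI-AML3 MLLT3 rose (0.44 ± 0.07) and AFF3 (-0.57 ± 0.06), EAF2 (-0.49 ± 0.04) and CDK13 (-0.34 ± 0.03) fell. The AFF3 response was 1.12 lower in OCI-AML3 than in MOLM13 by the test of the difference (log2 -1.12 ± 0.13 SE, adjusted p = 1.48e-05), beside AFF1 at -0.07 with an interval from -0.41 to 0.27. In MV4-11 MLLT3, another super elongation complex subunit, rose (1.63 ± 0.30) and EAF2 fell (-0.70 ± 0.16). There 6 of the 9 other 7SK and P-TEFb partners fell, beside 9.34% of all genes called lower. DDX21 (-1.10 ± 0.16), HNRNPA2B1 (-0.75 ± 0.18), HNRNPR (-0.74 ± 0.16) and SYNCRIP (-0.73 ± 0.15) fell the farthest.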

How the data were processed

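Raw counts per gene were deposited by the authors for 18 libraries of cell line RNA. The submitters' processing notes name STAR and hg38, the study's methods name TopHat2 and Cufflinks2, and neither the counting program nor the annotation release was stated. Ensembl IDs were matched to symbols for 40894 of 58037 entries, and IDs without a symbol held 0.377% of counts. Counts were scaled by TMM and tested with edgeR 4.0.16 (glmQLFit, glmQLFTest, filterByExpr, R 4.3.3), each line apart and contrasts of lines in a fit of all 18 libraries. Calls needed a Benjamini-Hochberg adjusted p under 0.05 over all genes tested and a change of at least 1.25-fold, the fold limit of the study. Errors are SE unless given as SD, and intervals are 95%. CPM used TMM factors of all 18 libraries, and levels per kilobase used union exon length of GENCODE genes. All 10 genes were named in each comparison, with at most 4 called genes of largest change from each other list and the 5 genes most like HEXIM1, except a few genes that are not reported here. The genes and lists were chosen with earlier results of these data known. The scripts were tested on simulated data. DESeq2 1.42.0, limma-voom 3.58.1 with quantile normalization, other scalings, no filter, a replicate block and each library left out were the alternatives.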

Additional observations from a re-analysis of the deposited data

Results flagged for a closer look

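Of the 10 genes, CCNT1 and CCNT2 were called for the interaction of SNDX-50469 and OTX015 in MOLM13. That count is near the share of all genes called there, 24.2%, and is not read as a result about the members. The CCNT1 call was lost in 8 of 16 alternatives, and that of CCNT2 in 1, the fit of all 18 libraries. The joint response was lower than the sum of the single responses by a log2 difference of -0.50 for CCNT2 and -0.34 for CCNT1. With 1 library left out, the CCNT2 difference ran from -0.68 to -0.35, beside a fold limit of 0.32 on the log2 scale. Among the other elongation genes, the SNDX-50469 response of AFF3 was lower in OCI-AML3 than in MOLM13 by the test of the difference (log2 -1.12), as was that of EAF2 (log2 -0.57).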

How the results depend on the processing

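For the values of the 10 genes 2238 alternatives were computed. Of these, 2112 kept their side of the call, 48 lost a call and 78 gained one. A change of sign in a value called in either fit occurred in 0. Values called in neither fit could change sign and still count among the 2112, as HEXIM2 with SNDX-50469 in MOLM13 did, from -0.40 to 0.27. Replicate numbers did not pair the libraries (correlation of deviations between -0.137 and 0.0891). The replicate block moved the members called with SNDX-50469 to 5 in MV4-11 and to 2 in OCI-AML3 and no other count by over 1.5 times. By adjusted p alone, members called with SNDX-50469 were 5 in MOLM13 and 4 in OCI-AML3, beside 4691 and 6338 of all genes. They were 8 with both agents against SNDX-50469, 8 against OTX015, 7 for the interaction and 10 for untreated MV4-11 against OCI-AML3. Of all genes 57%, 34.9%, 24.2% and 67.4% were called in these contrasts, in that order, with the fold limit. By adjusted p alone those shares are at least as large. They are not given at that limit, so these member counts are not read as a result. Library totals alone gave 1 member with SNDX-50469 in MOLM13, 1 in MV4-11 and 3 in OCI-AML3, and limma-voom with quantile normalization and no filter gave 2 each in OCI-AML3. The fit of all 18 libraries called 0 members for the interaction, 0 in OCI-AML3 and 5 in MV4-11, with 5934 genes in MV4-11, and MOLM13 and OCI-AML3 fitted together called 1344 genes for the difference in SNDX-50469 response. Leaving out each library, with a lone library assumed to vary like the others, gave 0 to 2 members with SNDX-50469 in MOLM13, 1 to 4 in MV4-11 with 1637 to 3340 genes, 1 to 3 in OCI-AML3, 2 to 4 for the interaction, and 462 to 1036 genes for the difference in response. Of 74 called values of genes from the other lists, 20 lost the call under at least 1 alternative, 9 of them under more than 3, among them ICE1, SUPT5H and INTS12 in MOLM13 and CDK13 in OCI-AML3, and 0 reversed. Depth limits HEXIM2 in MOLM13, with 7 to 23 counts a library.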
